A study of Mus musculus with 2 samples.

Results

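Levels, transcript models and splice junctions of 9 genes of fatty acid metabolism were followed in fetal mouse liver. The genes are Fabp1, Ppara, Cpt1a, Acadm, Acly, Acaca, Fasn, Scd1 and Scd2, taken by symbol as the named steps from fatty acid binding through oxidation to synthesis and desaturation. All 9 of the 43346 Ensembl gene rows in the deposited tables were found, and all 9 had enough counts to be tested. The tissue was liver of C57BL/6J embryos at embryonic day 14.5, taken from littermates of both sexes. The series is 1 group of 2 libraries that the labels call biological replicates 2 and 1, with no treatment or mutation, so no condition is compared. Polyadenylated RNA over 200 nt, depleted of ribosomal RNA, was read in strand-specific pairs. The labels do not say how many embryos or litters each library holds, so the spread between the libraries may be technical in part.

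Fatty acids are made in the cytosol from citrate: ATP citrate lyase releases acetyl-CoA, acetyl-CoA carboxylase turns it into malonyl-CoA, fatty acid synthase builds palmitate and stearoyl-CoA desaturases add a double bond. They are broken down in mitochondria, which acyl chains enter by the carnitine shuttle, a step that malonyl-CoA inhibits. In liver the acetyl-CoA of oxidation can leave as ketone bodies, and the nuclear receptor PPAR-alpha switches on many genes of binding, oxidation and ketone body formation.

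The files held 65640929 estimated gene counts in replicate 2 and 102720906 in replicate 1, so that a gene without counts could still lie at 0.0457 CPM in replicate 2 or 0.0292 CPM in replicate 1 (CPM being counts scaled to the library size, and the limit 3 counts). Reads carry no molecular identifiers, so such limits and all intervals cover counting error only. Levels between genes are given in TPM, the abundance scaled for transcript length that the authors deposited. Globin genes took 57.5% of TPM in replicate 2 and 48.5% in replicate 1, which lowers the TPM of every other gene. Liver identity was clear: all 12 hepatocyte and hepatoblast markers reached 1 TPM in both libraries, led by albumin, Alb, at 9617 ± 999 TPM (SD, n = 2, as for all values with ± below). Other cells were present too. Summed markers of erythroid cells, the globins left out, stood at 3861 TPM in replicate 2 and 4331 TPM in replicate 1. Those of macrophages stood at 225 and 206.1 TPM, of endothelium at 106.3 and 116.1 TPM and of mesenchyme at 89.5 and 133.4 TPM. None of these genes was called. In a bulk organ fewer cells of a type and less RNA per cell cannot be told apart.

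In TPM over all transcript models, the fatty acid binding protein gene Fabp1 and the desaturase gene Scd2 led the 9 genes, and the regulator Ppara was the lowest. The means were 127.7 ± 62.1 TPM for Fabp1, 84.7 ± 6.21 TPM for Scd2, 54.2 ± 7.13 TPM for Fasn, 39.6 ± 6.27 TPM for Acly and 32.1 ± 8.34 TPM for Acadm. Scd1 followed at 18.9 ± 1.46 TPM, and Acaca, Cpt1a and Ppara closed the order at 4.25 ± 0.417, 3.74 ± 0.99 and 2.77 ± 2.09 TPM. Both libraries of Scd2 lay above both of Fasn, both of Fasn above both of Acly, both of Acadm above both of Scd1, and both of Scd1 above both of Acaca. Fabp1 and Scd2, Acly and Acadm, and the neighbours among Acaca, Cpt1a and Ppara overlapped. Of the 17906 genes with at least 10 counts, 487 had a higher mean TPM than Fabp1 and 49.1% a lower one than Ppara.

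The order depended on which transcript models were summed. Over protein-coding models alone, an alternative added after the values were seen, Fasn had 10.4 TPM in replicate 2 and 9.3 TPM in replicate 1, and Ppara 0.93 and 1.11 TPM. Fasn then ranked below Acly, Acadm and Scd1, with both of its libraries under both of theirs. Scd1, Scd2, Cpt1a and Fabp1 have 1 model each and were not affected.

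**Figure D1:**
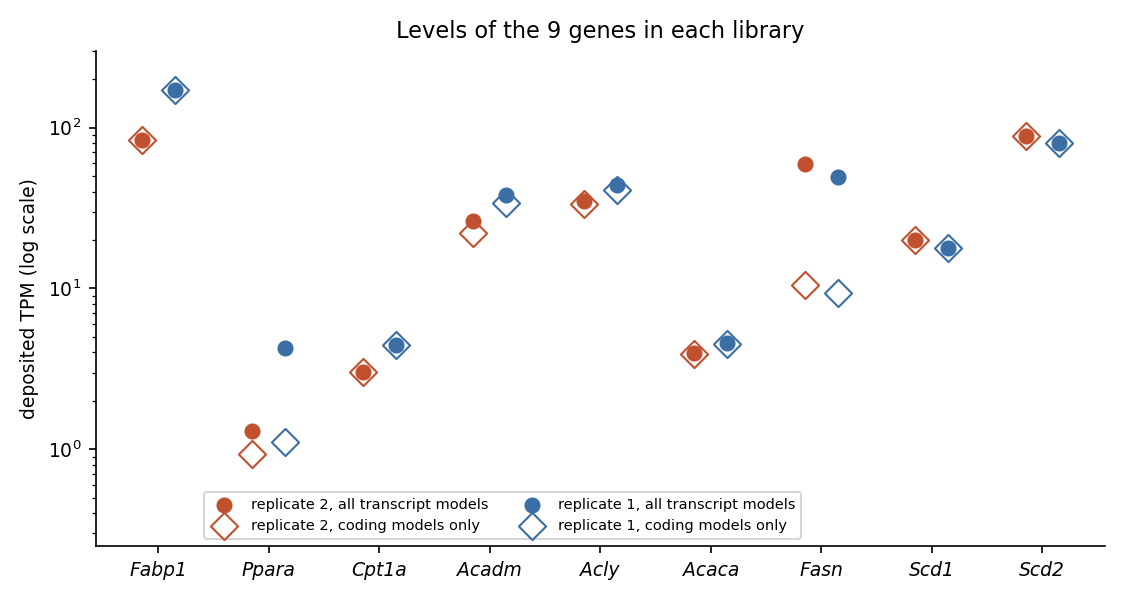
Deposited TPM (log scale) of the 9 genes in replicate 2 (red, left of each pair) and replicate 1 (blue, right). Filled circles sum all transcript models of a gene and open diamonds the protein-coding models; the symbols part clearly for Fasn (59.3 and 49.2 TPM against 10.4 and 9.3 TPM) and for Ppara in replicate 1 (4.25 against 1.11 TPM).

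Fabp1 (ENSMUSG00000054422, mm10 chromosome 6, 71199827 to 71205023, plus strand) encodes the liver fatty acid binding protein, which carries fatty acids through the cytosol of hepatocytes. It is shown with the bases before its start because a direct repeat with 1 spacer base, the element that PPAR and RXR bind as a pair, lies there. The window ends just before the Ensembl start, at chr6:71199707-71199826 of GRCm38.p6, plus strand, sequence from RefSeq; the repeat, on the other strand, is in capitals.
Fabp1 upstream: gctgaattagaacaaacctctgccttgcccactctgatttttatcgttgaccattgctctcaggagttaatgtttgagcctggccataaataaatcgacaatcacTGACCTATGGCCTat
The letters searched were AGGNCA, any 1 base and AGGNCA again, on both strands, in windows from RefSeq that 7 of the 9 genes have, and they were found in the window of Fabp1 alone among the 7. The windows searched have 300 nt, longer than the stretch printed, and 0.381% of all 32851 such windows hold the letters. A match describes these letters and is not evidence of binding.

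Fabp1 had 83.8 TPM in replicate 2 and 172 TPM in replicate 1, from 2081 and 7363 counts. Replicate 2 was therefore the lower library. The authors' deposited TPM intervals were 79.4 to 86.5 in replicate 2 and 167 to 175 in replicate 1, which do not overlap. Among the 9 genes only the intervals of Acaca overlapped, so this does not set Fabp1 apart. Those of Ppara, at 1.19 to 3.16 in replicate 2 and 3.44 to 5.45 in replicate 1, were apart too. Scaled for library size, replicate 2 was 2.27-fold lower, a log2 difference of -1.18 (95% exact interval -1.25 to -1.11, adjusted p 4.12e-271 by the exact conditional binomial test with Benjamini-Hochberg adjustment over all tested genes). Fabp1 was the 1 gene of the 9 called; a call needs a fold of 2 or more together with an adjusted p under 0.05. Of all 17906 tested genes 8.1% were called, with 3.53% higher and 4.57% lower in replicate 2. With edgeR's exact test and the common dispersion of all tested genes, Fabp1 was not called at the same log2 difference.

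The Fabp1 transcript is short, at 553 nt, and short transcripts as a class were lower in replicate 2. Of the 1066 tested genes under 700 nt, 29.1% were called lower in replicate 2, with a median log2 difference of -0.61, against 1.13% and 0.03 for the 3441 genes of 4000 nt or more. Hepatocyte markers were also lower on balance: 9 of 12 had a log2 difference below 0, with a summed level of 22550 TPM in replicate 2 and 27880 TPM in replicate 1, and none was called. As a share of the TPM of nuclear genes other than globins, these markers took 5.85% in replicate 2 and 6.14% in replicate 1, which is closer together than the sums. The part of transcript length or of hepatocyte content in the difference of Fabp1 was not tested. In the mm9 tables, whose replicate columns are not tied to the libraries by name, the 3 introns of Fabp1 carried 5637 junction reads in the first deposited replicate and 1645 in the second.

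Other binding proteins were present beside it. Fabp5, the epidermal type, was above Fabp1 in both libraries, at 334 TPM in replicate 2 and 545 TPM in replicate 1. Fabp4, the adipocyte type, had 8.24 and 11.6 TPM, and Fabp2, the intestinal type, 3.77 and 7.21 TPM. The adipocyte markers Lep and Plin1 were at 0 in both libraries, and the intestinal marker Fabp6 was at 0 as well. The 8 adipocyte markers summed to 1.96 TPM in replicate 2 and 2.16 TPM in replicate 1. Among the 2 tested, 1 was called lower in replicate 2, against 4.57% of all tested genes. The 8 intestinal markers, which include Fabp2, summed to 8.09 and 9.92 TPM, so that sum holds the level of Fabp2 itself. The 6 tested held 3 called higher in replicate 2, against 3.53% of all tested genes. The part of such cells in the levels of Fabp4 and Fabp2 was not tested.

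Ppara (ENSMUSG00000022383, mm10 chromosome 15, 85734983 to 85802819, plus strand) encodes the receptor itself. Its TPM was 1.3 in replicate 2 and 4.25 in replicate 1, yet the 280 and 488 counts behind them gave a log2 difference of -0.16 (95% exact interval -0.38 to 0.05, adjusted p 0.208 by the exact conditional binomial test). The TPM and the counts part because of 1 model. A noncoding model of 315 nt, ENSMUST00000136453, was given 0 counts in replicate 2 and 37.8 counts in replicate 1, where its short length turned them into 2.94 TPM, or 69.1% of the gene. The coding model ENSMUST00000109422 held 93.2% of the counts in replicate 2 and 90.5% in replicate 1.

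Junction reads of Ppara were few but covered every intron of that coding model, with 27 to 66 reads per intron over both deposited replicates. The first exon of the noncoding model lies inside the second intron of the coding one and was joined to the next exon by 51 reads (mm9 chromosome 15, intron 85602712 to 85607950). The exon upstream, shared by the coding models, was joined to the same exon by 34 reads (intron 85567309 to 85607950). Both junctions were seen in each deposited replicate, with 33 and 18 reads for the inner exon and 21 and 13 for the upstream one. The inner exon thus had junction reads in both replicates, although the mm10 table gave its model 0 counts in replicate 2. An intron outside the annotation, 85608198 to 85611308, had 26 reads. The related receptors Ppard and Pparg stood at 5.92 ± 0.707 and 0.55 ± 0.156 TPM, so Ppard exceeded Ppara in both libraries.

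Cpt1a (ENSMUSG00000024900, mm10 chromosome 19, 3322334 to 3385733, plus strand) encodes the liver form of carnitine palmitoyltransferase 1, the step of oxidation that malonyl-CoA inhibits. It had 3.04 TPM in replicate 2 and 4.44 TPM in replicate 1, from 1201 and 2293 counts. The log2 difference was -0.29 (95% exact interval -0.39 to -0.19), under the 2-fold bound. All 18 introns of its 1 model carried reads, between 62 and 204 each. The muscle form Cpt1b and the brain form Cpt1c were lower than Cpt1a in both libraries, at 1.67 ± 0.255 TPM for Cpt1b and 1.73 ± 0.255 TPM for Cpt1c.

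The rest of the carnitine shuttle was led by the inner-membrane enzyme Cpt2 at 23.4 ± 2.69 TPM, followed by the peroxisomal Crot at 14.9 ± 5.62 TPM, the acetyltransferase Crat at 14.3 ± 0.276 TPM and the translocase Slc25a20 at 6.985 ± 1.72 TPM. All 9 genes of this list reached 1 TPM in both libraries, none was called, and their median was 5.77 TPM in replicate 2 and 5.73 TPM in replicate 1. Cpt1a lay below that median in both libraries.

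Acadm (ENSMUSG00000062908, mm10 chromosome 3, 153922357 to 153944632, minus strand) encodes medium-chain acyl-CoA dehydrogenase, the first enzyme of the oxidation cycle for medium chains. It had 26.2 TPM in replicate 2 and 38.0 TPM in replicate 1, from 3897 and 8083 counts, so replicate 2 was lower. The log2 difference was -0.41 (95% exact interval -0.47 to -0.36), again under 2-fold. The coding model ENSMUST00000072697 held 97.8% of counts in replicate 2 and 97.3% in replicate 1, and its 11 introns carried 764 to 1497 junction reads.

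Acadm lay close to the middle of mitochondrial beta-oxidation. Each of the 16 listed genes reached 1 TPM in both libraries, and their median was 27.7 TPM in replicate 2 and 38.7 TPM in replicate 1. The highest were the thiolase Acaa2 at 78.5 ± 9.45 TPM, the electron transfer flavoprotein chains Etfa at 78.1 ± 8.02 and Etfb at 69.3 ± 26.4 TPM, and Hadh at 67.7 ± 10.3 TPM. None of the 16 was called, and 14 of them had a log2 difference below 0, with a median of -0.14; of all tested genes 50.9% lay below 0, with a median of -0.01. The lower side was thus the same library as for Fabp1 and Cpt1a, and as for most hepatocyte markers. Acadm is itself 1 of the 16. The part of hepatocyte content in this was not tested.

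Genes of ketone body formation and use were expressed at a like level. Of 8 listed, 7 reached 1 TPM in both libraries and none was called; the median was 30.3 TPM in replicate 2 and 34.2 TPM in replicate 1, with a median log2 difference of -0.33. Bdh1, which interconverts the ketone bodies, stood at 80.7 ± 9.62 TPM, the thiolase Acat1 at 41.1 ± 13.6 TPM and the monocarboxylate transporter Slc16a1 at 35.4 ± 2.29 TPM.

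Acly (ENSMUSG00000020917, mm10 chromosome 11, 100476353 to 100528000, minus strand) encodes ATP citrate lyase. It had 35.1 TPM in replicate 2 and 44.0 TPM in replicate 1, from 13280 and 21654 counts. The log2 difference was -0.06 (95% exact interval -0.10 to -0.03, adjusted p 0.000124 by the exact conditional binomial test), far under 2-fold. All 28 introns carried reads, between 632 and 2518.

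Acly was the 1 gene of the 9 with a cassette exon that had at least 10 reads on each inclusion and skipping junction. The exon has 30 nt, lies in the coding sequence (mm10 chromosome 11, 100503160 to 100503189, minus strand; mm9 100364474 to 100364503), and a multiple of 3 nt keeps the reading frame. It is printed because the 2 spliced forms differ by it alone here, from GENCODE M21 on GRCm38, with 15 nt of each neighbouring exon in lower case and the exon in capitals.
Acly with the exon: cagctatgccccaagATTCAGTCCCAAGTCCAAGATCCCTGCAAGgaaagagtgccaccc
Acly without the exon: cagctatgccccaaggaaagagtgccaccc
The inclusion junctions had 797 and 633 reads and the skipping junction 1231. Inclusion was 36.7% (Wilson 95% interval 34.6 to 38.9) from the mean of the inclusion junctions, with 40.4% in the first deposited replicate and 33.2% in the second. Skipping was thus the more frequent form in each. The other 10 exons with any skipping read, in Acly, Ppara, Acaca, Fasn, Scd2 and Acadm, had 1 to 10 such reads. The 10 belonged to a 47-nt exon of Acaca (mm9 chromosome 11, 84006581 to 84006627) with 8 and 11 inclusion reads, too few for a share with a narrow interval.

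The transcript models of Acly were split differently in the 2 libraries. A coding model that starts at 100523598, ENSMUST00000165111, was given 18.1 TPM in replicate 2 and 8.36 TPM in replicate 1. The models that start at 100528000 took 15.6 TPM in replicate 2 and 32.7 TPM in replicate 1, so the inner start held 51.5% of the gene in replicate 2 and 19% in replicate 1. In the authors' deposited table the TPM intervals of the inner model were 16.8 to 19.2 in replicate 2 and 6.93 to 9.65 in replicate 1. The models were less steady on mm9, where the inner one had 9.57 RPKM in the first deposited replicate and 0 in the second. Of the models that start at 100528000, ENSMUST00000007131 had 0.368 and 6.71 RPKM there, and ENSMUST00000107389 had 4.21 and 0.857. The inner model has no junction that the other models lack, but it lacks the first intron of the longer ones. That intron had 2002 reads over both deposited replicates, against 632 in the next intron and a median of 1404 over all 28. Intron 25 had the most, at 2518. These reads are not tied to replicate 2 or 1 by name, and the use of the inner start was not tested with them. The exon of 30 nt is in the long model ENSMUST00000107389, which had 11.2 TPM in replicate 2 and 17.0 TPM in replicate 1, and in neither of the other main models.

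Acaca (ENSMUSG00000020532, mm10 chromosome 11, 84129672 to 84401651, plus strand) encodes acetyl-CoA carboxylase 1, which makes malonyl-CoA for synthesis. It had 3.96 TPM in replicate 2 and 4.55 TPM in replicate 1, from 2979 and 4388 counts. The log2 difference was 0.08 (95% exact interval 0.02 to 0.15, adjusted p 0.0299 by the exact conditional binomial test). The model ENSMUST00000020843, which starts at 84195438, took 82.0% of TPM in replicate 2 and 82.1% in replicate 1, and the start at 84173122 took 3.79% and 3.21%. Its mitochondrial-type relative Acacb, which makes the malonyl-CoA that holds back the carnitine shuttle, had 0.3 TPM in replicate 2 and 0.22 TPM in replicate 1.

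Reads of Acaca lay mostly in its last exon. That exon has 2086 nt, 23.1% of the leading model, and its contig in the authors' mm9 table had a value of 8.55. The column has no header, and it is read here as coverage scaled by the authors. The other 53 exons lay between 0 and 1.82, with a median of 0.329, so every one of them was below the last. Junction reads were few along the whole gene: 46 of 53 introns had any, with a median of 7 and a highest value of 98. The gene had 6.45 estimated counts per junction read of the leading model, the highest of the 9. Scd1 had 3.63, Scd2 3.48 and Ppara 2.46, and the other 5 lay between 0.93 and 1.45. By junction reads per intron Acaca was the lowest of the 9, below Ppara with a median of 41, although it stood above Ppara and Cpt1a in mean TPM.

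Fasn (ENSMUSG00000025153, mm10 chromosome 11, 120805846 to 120824547, minus strand) encodes fatty acid synthase. The 120 bases before its start, chr11:120824548-120824667 of GRCm38.p6, minus strand, from RefSeq, are shown because CCAAT boxes, which the factor NF-Y binds, stand in them close together; they are in capitals.
Fasn upstream: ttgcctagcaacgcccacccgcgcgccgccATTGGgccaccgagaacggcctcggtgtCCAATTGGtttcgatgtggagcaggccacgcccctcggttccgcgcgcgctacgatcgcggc
A search for CCAAT on both strands found 3 matches, of which 2, on opposite strands, overlap in CCAATTGG. Of all windows of 300 nt, longer than the stretch printed, 37.4% hold at least 1 match, so a match alone is common. The windows of Acly and Cpt1a held a match too.

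Fasn had 59.3 TPM in replicate 2 and 49.2 TPM in replicate 1, from 12256 and 14344 counts. Replicate 2 was the higher library, by 1.33-fold after scaling for library size (log2 difference 0.41, 95% exact interval 0.38 to 0.45). The coding model of 9587 nt, ENSMUST00000055655, held 78.2% of counts in replicate 2 and 76.7% in replicate 1, but only 17.6% and 18.9% of TPM. The other TPM went to 2 retained-intron models near the 3′ end, ENSMUST00000146541 of 762 nt with 27.0 and 18.0 TPM and ENSMUST00000155276 of 971 nt with 21.8 and 21.9 TPM. In the mm9 table of the authors Fasn had a mean of 4.89 RPKM (reads scaled for length and library size), below Acadm at 9.37 RPKM. Against Scd1 the deposited replicates differed in order: Fasn had 5.73 and Scd1 4.82 RPKM in the first, and Fasn 4.06 and Scd1 6.26 RPKM in the second.

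Junction reads of Fasn increased towards the 3′ end of the gene. The first intron had 212 reads, the lowest 125, and the last 1762, which is 8.31 times the first. All 42 introns had reads in the table. Contig coverage ran the same way, with 1.18 over the first exon and 18.6 over the last. Exons inside 1 contig share its value, and Fasn had 11 contigs. The last introns of Acly and Acadm had 0.88 and 0.758 times the junction reads of the first. Their contig coverage was nevertheless higher over the last exon, at 19.3 against 5.48 over the first in Acly and 29.5 against 1.27 in Acadm, so a high last exon was not particular to Fasn.

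**Figure D2:**
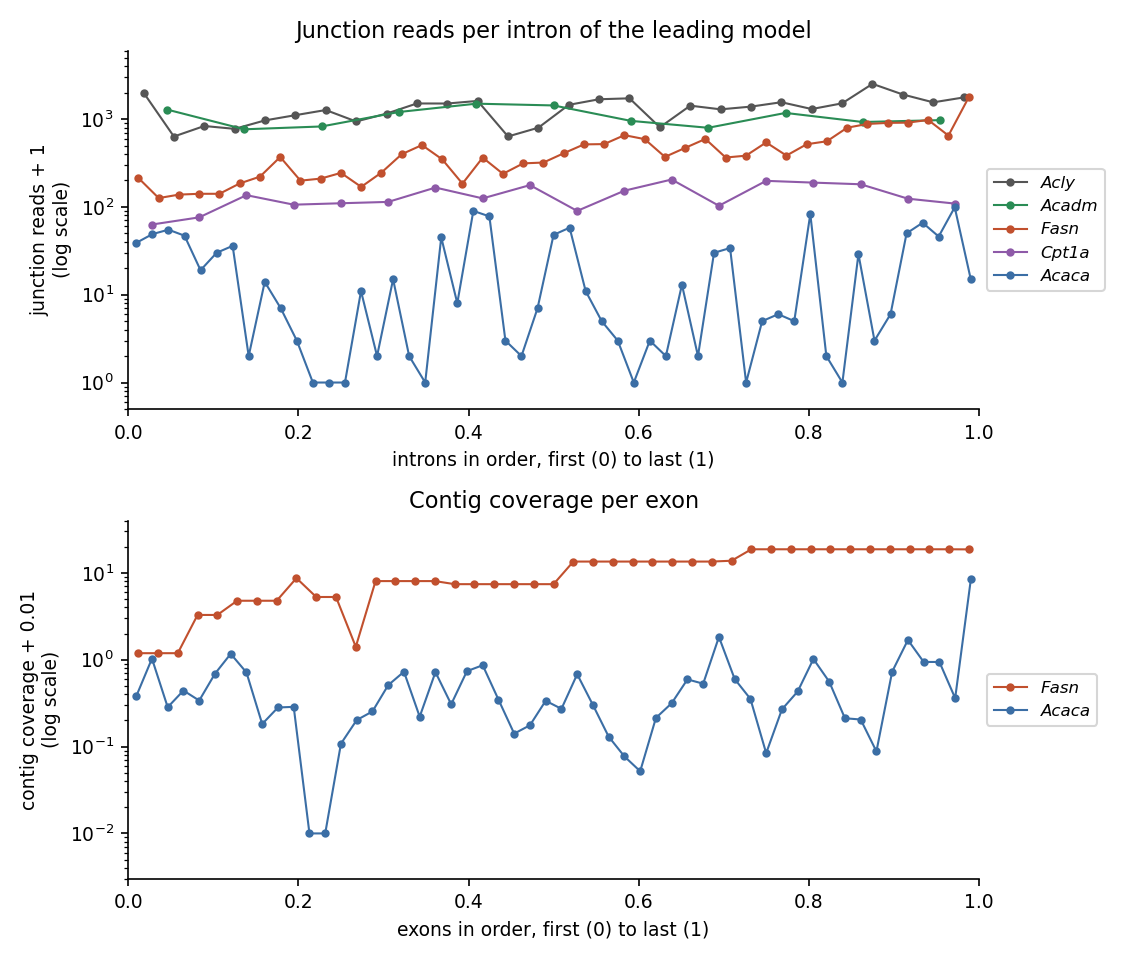
Above, junction reads plus 1 (log scale) for each intron of the leading model, in order from the first to the last, for 5 genes in the mm9 table. Below, the authors' contig coverage plus 0.01 (log scale) for each exon of Fasn and Acaca. Fasn climbs along the gene, while Acaca stays under 100 junction reads throughout and its coverage jumps at the last exon, at 8.55 against at most 1.82 elsewhere.

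Around these enzymes, the list for synthesis of acyl chains had 9 of 11 genes at 1 TPM or more in both libraries and none called. The citrate carrier Slc25a1, which exports the substrate of Acly, followed Fasn and Acly at 36.4 ± 6.5 TPM, and the mitochondrial reductase Mecr stood at 21.9 ± 1.4 TPM.

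Scd1 (ENSMUSG00000037071, mm10 chromosome 19, 44394455 to 44407879, minus strand) and Scd2 (ENSMUSG00000025203, chromosome 19, 44293674 to 44306864, plus strand) encode stearoyl-CoA desaturases, which make monounsaturated acyl chains; Scd1 is the main form of adult liver. Here Scd2 was the higher one. The level of Scd2 was 89.1 TPM in replicate 2 and 80.3 TPM in replicate 1. Scd1 had 19.9 and 17.8 TPM. Scd2 exceeded Scd1 by 4.48 times in replicate 2 and by 4.5 times in replicate 1 (mean log2 ratio 2.17 ± 0.006), so the libraries differed in it by far less than in the levels. With 2 libraries an exact test cannot go under p = 0.5, and none was made.

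Both desaturase genes were higher in replicate 2 by the same amount as Fasn. The log2 difference was 0.42 for Scd1 (95% exact interval 0.38 to 0.46) and 0.41 for Scd2 (0.40 to 0.43), and neither reached 2-fold. Scd3 and Scd4, the other genes of the cluster, were near or at 0: Scd3 had 0 TPM in both libraries, from 1 count in replicate 2 and 0 in replicate 1, and Scd4 had 0.08 and 0.05 TPM.

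The paralogs are close copies in places, and exon 4, of 206 nt in each, is printed because it bears on which gene a spliced read is given to. Sequences are from GENCODE M21 on GRCm38, 5′ to 3′ on the gene's strand, and capitals mark bases that differ from Scd2. The positions are chr19:44299609-44299814 (plus strand) for Scd2, chr19:44235771-44235976 (plus) for Scd3, chr19:44338910-44339115 (plus) for Scd4 and chr19:44401693-44401898 (minus) for Scd1.
Scd2: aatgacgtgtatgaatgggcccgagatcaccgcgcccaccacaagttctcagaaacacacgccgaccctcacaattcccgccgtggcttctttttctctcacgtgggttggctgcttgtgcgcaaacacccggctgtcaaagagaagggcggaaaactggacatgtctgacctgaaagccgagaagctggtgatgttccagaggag
Scd3: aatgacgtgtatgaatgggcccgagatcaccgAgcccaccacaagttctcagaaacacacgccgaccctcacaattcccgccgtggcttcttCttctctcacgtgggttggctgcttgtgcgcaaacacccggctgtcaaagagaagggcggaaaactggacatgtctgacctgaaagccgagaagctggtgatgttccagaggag
Scd4: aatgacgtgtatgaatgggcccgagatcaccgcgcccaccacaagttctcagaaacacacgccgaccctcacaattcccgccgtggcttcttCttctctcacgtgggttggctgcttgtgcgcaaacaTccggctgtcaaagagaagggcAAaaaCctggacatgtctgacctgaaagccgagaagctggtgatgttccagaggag
Scd1: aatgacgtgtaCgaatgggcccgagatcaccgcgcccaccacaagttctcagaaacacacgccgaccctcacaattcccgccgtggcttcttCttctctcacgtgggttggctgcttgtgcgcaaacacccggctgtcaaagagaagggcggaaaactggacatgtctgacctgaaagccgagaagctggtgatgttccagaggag
Against Scd2, this exon has 2 differences in Scd3, 2 in Scd1 and 5 in Scd4. The last 113 bases are the same in Scd2, Scd3 and Scd1, more than the length of a read, and the first 92 are the same in Scd2 and Scd4. The exons on either side are less alike, at 84.7% and 85% identity between Scd3 and Scd2 and 76.3% and 75.1% between Scd4 and Scd2. Scd1 was the closest to Scd2 in them, at 89.3% and 92.7%.

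In the mm9 junction table many reads joined an exon of one of these genes to an exon of another. Of the junction reads among Scd2, Scd3 and Scd4, 75.6% joined exons of Scd2, 13.8% went from Scd3 to Scd2 and 10.4% from Scd2 to Scd4. The 2 junctions with the most such reads both used exon 4. Exon 4 of Scd3 was joined to exon 5 of Scd2, across 65235 nt, by 4837 reads, against 5919 reads between exons 4 and 5 of Scd2 itself. Exon 3 of Scd2 was joined to exon 4 of Scd4, across 40739 nt, by 2693 reads, against 3694 reads to its own exon 4. The next did not use exon 4. It joined exon 5 of Scd2 to the last exon of Scd4, across 43255 nt, by 1186 reads, against 8904 to its own last exon. Junctions within Scd3 had 33 reads and those within Scd4 had 10.

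**Figure D3:**
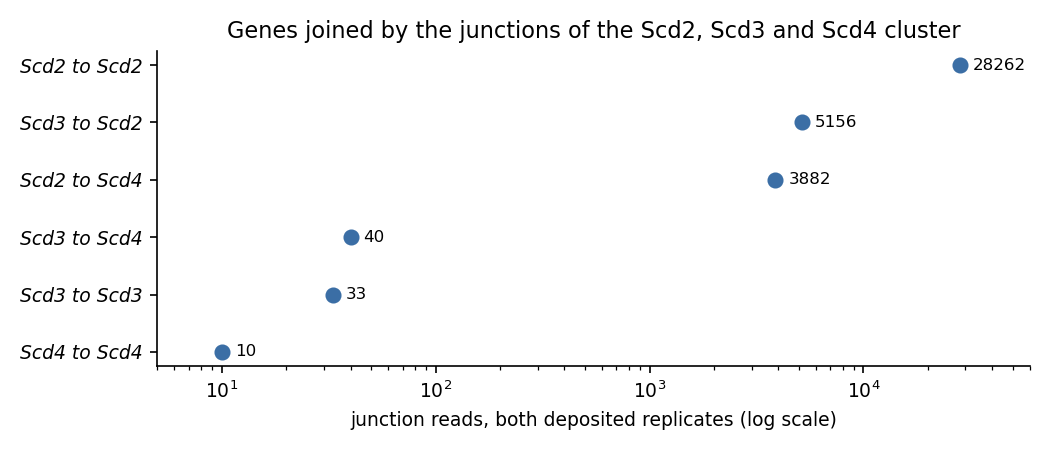
Junction reads of both deposited replicates (log scale) by the pair of genes whose exons they join. Junctions inside Scd2 hold 28262 reads, those from Scd3 to Scd2 hold 5156 and those from Scd2 to Scd4 hold 3882, while junctions inside Scd3 and inside Scd4 hold 33 and 10.

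Where the mm10 tables, made from alignments to transcripts, placed such reads was not followed. In the authors' deposited table the posterior SD of the count was 0.79 for both Scd2 and Scd1 in replicate 2 and 1.32 for both in replicate 1. The counts themselves were 45361 and 8915 in replicate 2 and 53130 and 10404 in replicate 1. How many of the joined reads came from Scd2 alone was not tested. Counted by reads within each gene only, the median intron of Scd2 had 5919 reads and that of Scd1 1112, a log2 ratio of 2.41, so Scd2 led on this measure too.

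Elongation and desaturation genes around them were broadly expressed, with 15 of 20 at 1 TPM or more in both libraries and none called. The elongation reductase Tecr stood at 141.5 ± 17.7 TPM, the elongase Elovl1 at 97.85 ± 19.3 TPM and the delta-6 desaturase Fads2 at 58.9 ± 12.2 TPM. Scd3 was the 1 gene of the list at 0 TPM in both libraries.

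Set against each other, the synthesis genes Acly, Acaca and Fasn summed to 98.4 TPM in replicate 2 and 97.7 TPM in replicate 1, and the oxidation genes Cpt1a and Acadm to 29.2 and 42.4 TPM. On the log2 scale the sums stood 1.75 apart in replicate 2 and 1.2 apart in replicate 1, with a mean of 1.48 ± 0.387. Over coding models alone this difference was 0.72 ± 0.296, with 0.93 in replicate 2 and 0.51 in replicate 1, since most of the TPM of Fasn lay on the short models. These are sums of 3 and of 2 genes, so equal levels per gene would already give a ratio of 1.5 before taking logs. As plain ratios the sums stood at 3.37 in replicate 2 and 2.30 in replicate 1. Over coding models the plain ratios were 1.91 in replicate 2 and 1.43 in replicate 1. Per gene, the means over all models were 32.8 TPM for synthesis and 14.6 TPM for oxidation in replicate 2, and 32.6 and 21.2 TPM in replicate 1. Over coding models they were 16.0 and 12.6 TPM in replicate 2 but 18.3 and 19.2 TPM in replicate 1, so the direction per gene was not the same in both libraries. Over the wider lists, the 11 synthesis genes summed to 191.5 TPM in replicate 2 and 184.4 TPM in replicate 1, below the 16 genes of mitochondrial beta-oxidation at 543.6 and 707.5 TPM.

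Between the libraries the 9 genes did not all lie on one side. Fasn, Scd1 and Scd2 were each about 1.33-fold higher in replicate 2, Acaca and Acly differed by under 1.1-fold, and Fabp1, Acadm and Cpt1a were lower in replicate 2, with Ppara within its interval of 0. Without the bound on the fold, 8 of the 9 had an adjusted p under 0.05 by the exact conditional binomial test, 4 higher and 4 lower in replicate 2. Of all tested genes 60.1% did, 29.2% higher and 30.9% lower, so at this depth the p alone sets few genes apart. The direction also depends on the scaling: with spike-in counts as library sizes the median of all genes moved by 0.66 on the log2 scale, and Ppara, Cpt1a, Acadm and Acly then lay above 0. The order of the 9 log2 differences is not changed by such a shift.

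**Figure D4:**
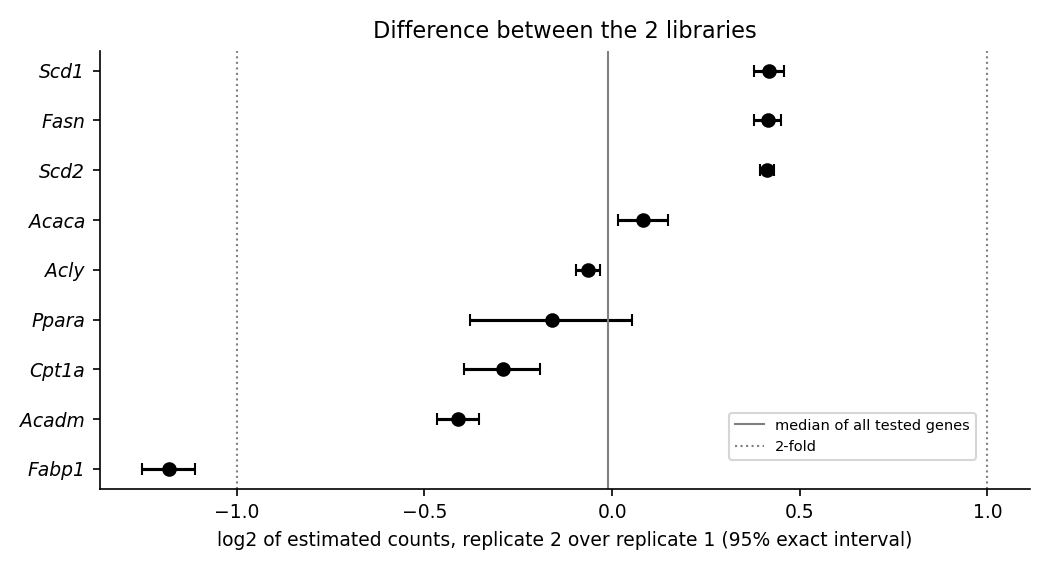
Log2 difference of each gene, replicate 2 over replicate 1, with TMM library sizes, and its 95% exact interval from counting error. The grey line is the median of all tested genes and the dotted lines mark 2-fold; only Fabp1 lies beyond 2-fold, at -1.18, and Fasn, Scd1 and Scd2 sit together at 0.41 to 0.42.

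The regulators of these pathways reached 1 TPM in both libraries in 17 of 20 cases, with a median of 10.3 TPM in replicate 2 and 9.01 TPM in replicate 1 and none called. Srebf1, the activator of lipogenic genes, was the highest at 41.2 ± 5.66 TPM, followed by the oxysterol receptor Nr1h2 at 31.8 ± 4.21 TPM, the SREBP anchor Insig1 at 26.5 ± 0.644 TPM and the liver factor Hnf4a at 22.5 ± 0.672 TPM. Ppara was below the list median in both libraries.

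Fatty acid uptake and binding had 13 of 16 genes at 1 TPM in both libraries, led by Fabp5 and by the acyl-CoA binding protein Dbi at 265.6 ± 84.9 TPM, with the aminotransferase and membrane protein Got2 at 96.2 ± 8.56 TPM. Fabp7, the brain type, had 1.53 TPM in replicate 2 and 0.67 TPM in replicate 1 and was called higher in replicate 2 (log2 difference 1.24, adjusted p 6.5e-06 by the exact conditional binomial test). Fabp3, the heart type, had 0.6 and 0.14 TPM and was also called higher (2.10, adjusted p 2.75e-05 by the same exact test). Of the 8 neural markers, which include Fabp7, 4 were called higher in replicate 2, and of the 8 striated muscle markers, which include Fabp3, 1 was, against 3.53% of all tested genes. Neural markers summed to 22.6 TPM in replicate 2 and 21.9 TPM in replicate 1. The part of such cells in these values was not tested.

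Acyl-CoA activation had 7 of 11 genes at 1 TPM in both libraries and none called, led by the mitochondrial acetate enzyme Acss1 at 31.4 ± 1.82 TPM, Acsl1 at 30.5 ± 4.85 TPM, Acsl5 at 26.1 ± 7.67 TPM and the cytosolic acetate enzyme Acss2 at 13.6 ± 0.622 TPM. Peroxisomal oxidation had 13 of 14 and none called, led by the carrier and thiolase Scp2 at 152.7 ± 50.5 TPM, Phyh at 32.1 ± 7.205 TPM, Acaa1a at 26.55 ± 1.245 TPM and Acox2 at 19.4 ± 3 TPM. Triglyceride and droplet genes had 16 of 21, led by the droplet coat gene Plin2 at 95.3 ± 9.42 TPM, the lipase inhibitor G0s2 at 54.5 ± 2.64 TPM, Dgat2 at 45.2 ± 5.11 TPM and Cideb at 38.5 ± 4.11 TPM. Plin5, a droplet protein of oxidative tissue, had 0.29 TPM in replicate 2 and 0.1 TPM in replicate 1 and was called higher (log2 difference 1.69, adjusted p 6.06e-06 by the exact conditional binomial test). Plin1, the coat protein of adipocytes, was at 0 in both.

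Known targets of PPAR-alpha were uneven. Of 18 listed, 11 reached 1 TPM in both libraries, led by Ucp2 at 301.7 ± 31.4 TPM, Fabp1, Plin2 and the trifunctional protein chain Hadha at 33.2 ± 7.545 TPM. Fgf21, the fasting hormone, was at 0 in both libraries, from 0 counts. Cyp4a14, an omega-hydroxylase, was called higher in replicate 2 from 9 counts there and 1 in replicate 1, at 0.04 TPM in replicate 2. Its log2 difference was 3.30 (95% exact interval 0.96 to 9.26, adjusted p 0.0055 by the exact conditional binomial test). Besides it, only Fabp1 of this list was called, lower in replicate 2. That is 1 higher and 1 lower of the 16 tested, against 3.53% and 4.57% of all tested genes.

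Over all 11 lists, 158 different genes were measured and 127 reached 1 TPM in both libraries. Of the 150 tested, 4 were called higher and 1 lower in replicate 2, which is 3.33% against the 8.1% of all tested genes. Of the 5 called, Fabp1 and Fabp7 had a mean of at least 1 TPM. The lists overlap with the 9 genes and were chosen with these data known, so their counts describe the setting of the 9 and test nothing.

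**Figure D5:**
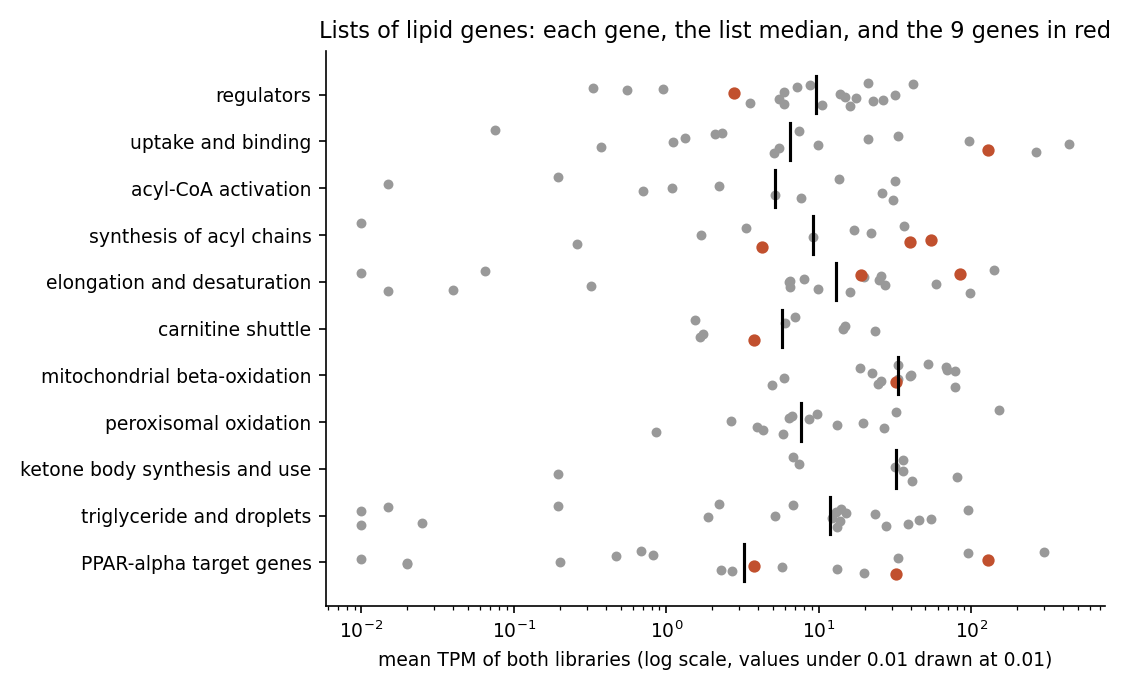
Mean TPM of both libraries (log scale) for every gene of 11 lists of lipid genes, with the 9 genes in red and the list median as a black bar. Mitochondrial beta-oxidation and ketone body genes have the highest medians of the 11 lists, 33.2 and 32.2 TPM, while the targets of PPAR-alpha spread from 0 to 301.7 TPM.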

How the data were processed

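The authors deposited, per library, gene and transcript tables with expected counts (estimated, not always whole), TPM, FPKM and each transcript's percent of its gene, per the file headers, from alignments to the transcriptome on mm10 with annotation M4, per the deposited note. Interval bounds of TPM and posterior SDs are the authors' own. On mm9 they deposited RPKM (annotation Ensembl 65), junction read counts with an irreproducible discovery rate, which like a p-value is small for reproducible features, and contigs with an unlabelled value read here as a coverage signal. The sources used here do not name the aligner or the counter. The mm9 replicate columns carry no library name.

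Expected counts were rounded and tested between the libraries by the exact conditional binomial test, two-sided, with TMM sizes (edgeR 4.0.16, R 4.3.3) and 0.5 added for log2 fold changes; p-values were adjusted by Benjamini-Hochberg over the 17906 genes that had 10 counts or more. The quasi-likelihood test of edgeR needs a second group, and these p-values compare 2 libraries, not conditions. DESeq2 1.42.0 gave other size factors. The exact binomial test was also run on simulated counts with counting error only, for replicate 2 over replicate 1, among 17916 tested genes. It called 100 of 100 at a 3-fold change, 100 of 100 at 6-fold and 0 of 17716 without a change. The test assumes that same error, so the 0 was built in and does not bear on false calls between real libraries. With edgeR's common dispersion, a coefficient of variation of 24.98%, 242 genes were called in the real data against 1450. The other steps used scipy 1.17.1, pandas 2.3.3, numpy 2.4.6, matplotlib 3.10.9 and Python 3.11.15. Log2 ratios within a library added 0.01 TPM. Starts within 50 nt were 1 start site. Of 96 spike-in rows none entered library sizes of the main test.

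The 9 genes and the lists were chosen with earlier results of these data known. Named genes are the 9, their paralogs, up to 4 highest of each list, called members and members at 0. Some genes of the lists are counted but not reported by name here. With 1 group no gene was named for a like pattern. Gene positions come from GENCODE M21, on the build of mm10.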

Additional observations from a re-analysis of the deposited data

How the results depend on the processing

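With DESeq2 size factors or no filter on low counts, 1 of the 9 genes stayed called, and all genes called numbered 1449 and 1545 against 1450. With spike-in sizes 3 of the 9 and 3795 genes were called, and with edgeR's exact test and a common dispersion (a coefficient of variation of 24.98%) 0 of the 9 and 242 genes; without adjustment that test gave 1079 genes a p under 0.05. Under spike-in sizes the log2 difference of Fabp1 was -0.52 and no longer called, Fasn, Scd1 and Scd2 were called at 1.07, 1.08 and 1.07, and Ppara, Acly, Cpt1a and Acadm changed sign, to 0.50, 0.60, 0.37 and 0.25; this follows from the shift of all genes. The log2 ratio of Scd2 to Scd1 was 2.16 to 2.17 with either library left out, and moved from 2.17 to 2.11 with a pseudocount of 1 TPM, 2.59 in mm9 RPKM, 2.35 in CPM and 2.41 in median junction reads. The log2 ratio of synthesis to oxidation genes was 1.2 to 1.75 with either library left out, and moved from 1.48 to 0.78 in mm9 RPKM, 0.72 over coding models and 0.71 in median junction reads. The coding-model and junction values were chosen after seeing the data. Inclusion of the Acly exon was 53.7% with the inclusion junctions summed, which counts an including molecule at both junctions. Removing 1 of 2 libraries always moves a mean by less than 1 SD, so this shows nothing of stability. No paired analysis was possible because there is 1 group. At under 100 reads per junction, single introns of Acaca and Ppara cannot be compared in detail.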
